A study of Felis catus with 6 samples.

Results

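KRT4, COL17A1 and LAMB4 are 3 genes of the oral epithelium, followed here among the 21529 gene identifiers measured in lesions and healthy mucosa of cats with feline chronic gingivostomatitis (FCGS), a chronic inflammation of the oral mucosa. They were chosen by name to stand for different levels of the epithelium, KRT4 for the mature layer and COL17A1 and LAMB4 for its anchorage, with their lesion and healthy values in view. All 3 were found among the identifiers, as ENSFCAG00000000295 (KRT4), ENSFCAG00000004299 (COL17A1) and ENSFCAG00000004479 (LAMB4), and all 3 passed the filter on low values, at least 1 FPKM in at least 3 libraries, that left 13327 identifiers for testing. The comparison of lesion with healthy mucosa was used to choose them, so for these 3 genes it is described and not tested.

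The oral mucosa is covered by a stratified squamous epithelium. Its basal cells are held to the basement membrane by hemidesmosomes, and cells that leave this layer change their keratins and build a tougher surface as they mature. KRT4 encodes a type II keratin of the suprabasal cells of moist, non-cornified epithelia, where it pairs with keratin 13. COL17A1 encodes collagen XVII, the transmembrane collagen of the hemidesmosome (the BP180 antigen of bullous pemphigoid). LAMB4 encodes a laminin beta chain, a less studied relative of the beta chains that build the laminins of basement membranes.

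The series held 6 RNA libraries from 3 cats, named Bart, Jerome and Sadie in the labels, each with 1 biopsy of an FCGS lesion and 1 of adjacent healthy mucosa. The cats had natural disease, and the healthy biopsies came from the same diseased animals, so no mucosa of a cat without FCGS was compared. The study describes its FCGS cats as edentulous, given buprenorphine for pain and receiving no immunosuppressive or antibiotic treatment when tissue was taken, and the ages of these particular cats are not in the labels. The labels call the tissue gingival, whereas the design text and the methods place the biopsies beside the palatoglossal folds.

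Values are FPKM, that is, fragments counted on a transcript, divided by its length and by library size. The depth of the libraries is unknown. The identifiers carry no symbols, so names came from the study's table of genes that differed at least 2-fold, and 1929 identifiers had one. A gene without a name could not be looked up. The study reports more such genes than were read here, so a gene without a name can still be among them. The basal keratins KRT5, KRT14 and KRT15 and the basal regulator TP63 were among the genes without a name, so the epithelium could not be checked by its defining basal markers.

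KRT4 was the gene of the 3 that did not follow the tissue. In healthy mucosa it reached 2089 FPKM in Bart and was listed at 0 in Jerome and in Sadie. In lesions it stood at 8.99 FPKM in Bart, 2534 FPKM in Jerome and 569 FPKM in Sadie. Both tissues thus held high and low libraries, and their ranges overlapped. In Bart the healthy value was 232-fold that of the lesion. In the other cats no fold can be given, because the healthy value was 0. An exact 0 in such files can be a failed estimate, although every value here was marked as OK.

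The high values of KRT4 stood near the top of their libraries. In the lesion of Jerome and the healthy mucosa of Bart, 99.4% of the tested identifiers lay below KRT4, and in the lesion of Sadie 98.2% did. In the lesion of Bart 44.2% lay below it. The spread of KRT4 between cats of the same tissue ranked number 8 from the largest among the 13327 identifiers. With values floored at 1 FPKM its pooled SD was 5.40 on the log2 scale, against a median of 0.41 over all of them. The healthy part of that spread rests on the 2 libraries listed at 0. KRT4 was chosen with these values in view, so nothing is read from the rank. The difference of the tissue means, lesion minus healthy, was 4.20 on the log2 scale with values floored at 1 FPKM. That figure moved with the treatment of the 2 zeros, to 6.42 with 0.1 FPKM added to every value instead. It also moved with single cats, to 10.2 without Bart and to 0.65 without Jerome.

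A high gene listed at 0 elsewhere was uncommon in these files. Of the 477 identifiers that reached 500 FPKM in some library, 23 (4.82%) were listed at 0 in at least 1 other. Of the 477, 3 were at 0 in the healthy library of Bart alone. Another 2 were at 0 in the healthy libraries of Jerome and Sadie and above 0 in the other 4. This last pattern was taken from KRT4, so nothing is read from its count. The 2 were KRT4 and an identifier without a name, ENSFCAG00000001928, at 8034 FPKM in healthy Bart and 3141 FPKM in lesional Jerome.

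**Figure D1:**
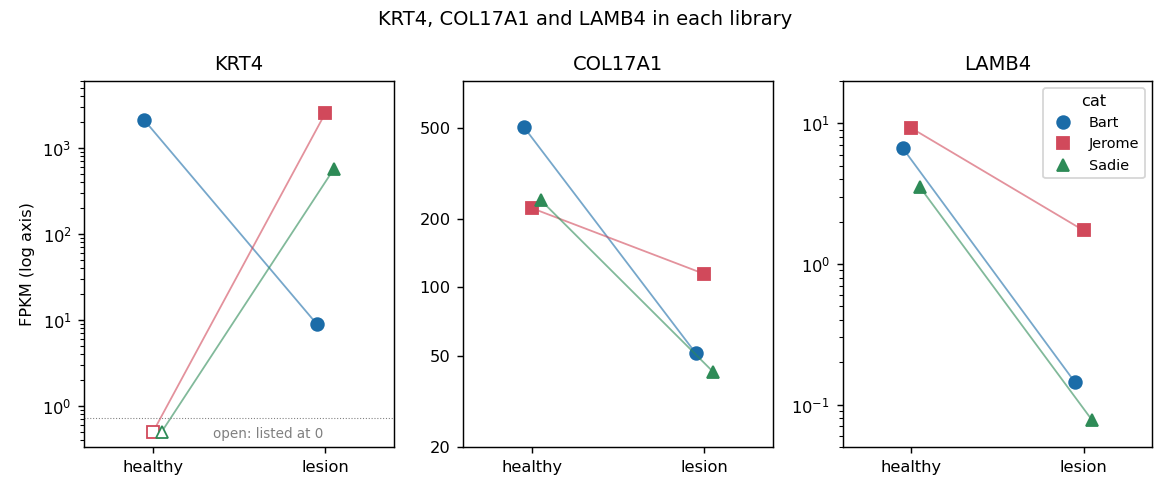
FPKM (vertical log axis, with its own range in each panel) of KRT4, COL17A1 and LAMB4 in healthy mucosa and lesion, with 1 point per library and a line joining the libraries of a cat. Open points mark libraries where KRT4 was listed at 0, drawn under the axis values. KRT4 runs down in Bart and up in Jerome and Sadie, whereas COL17A1 and LAMB4 run down in all 3 cats, least steeply in Jerome.

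COL17A1 was abundant in healthy mucosa and lower in every lesion. Healthy values were 504 FPKM in Bart, 222 FPKM in Jerome and 240 FPKM in Sadie. The lesions measured 51.4 FPKM in Bart, 114 FPKM in Jerome and 42.7 FPKM in Sadie. The tissues did not overlap: the lowest healthy value was 1.94-fold the highest lesion value, and both belonged to Jerome. The lesion kept 10.2% of the healthy value in Bart, 17.7% in Sadie and 51.6% in Jerome. Means were 322 ± 158 FPKM in healthy mucosa and 69.5 ± 39.1 FPKM in lesions (SD, n = 3 cats each), a log2 difference of -2.25. Leaving out any 1 library or cat gave -2.89 to -1.72.

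LAMB4 was a gene of low level that dropped under 1 FPKM in the lesions of Bart and Sadie. Healthy mucosa measured 6.65 FPKM in Bart, 9.24 FPKM in Jerome and 3.50 FPKM in Sadie. The lesions measured 0.144 FPKM in Bart, 1.73 FPKM in Jerome and 0.0773 FPKM in Sadie. The healthy libraries all lay above the lesions, and the lesion of Jerome was again the highest of its tissue. As a share of the healthy value the lesion held 2.17% in Bart, 2.2% in Sadie and 18.7% in Jerome. The number of reads behind values this low is unknown, and so is the precision of the 2 smallest shares. The log2 difference of the means was -2.32 with the floor at 1 FPKM, which hides part of the drop, and -3.83 with 0.1 FPKM added to every value instead.

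Falls of at least 2-fold were not rare in the series. Of the tested identifiers, 12.3% were at least 2-fold lower in lesions by mean log2 values and 16.9% at least 2-fold higher. Lesion values lay wholly below the healthy ones for 21.9% and wholly above them for 16.7%. COL17A1 and LAMB4 were chosen on this contrast, so nothing is read from their place among these. There were 583 identifiers (4.37%) with a larger fall than COL17A1 and 552 (4.14%) with a larger fall than LAMB4. These falls are on values floored at 1 FPKM, which hides part of the drop of LAMB4. The directions of KRT4, at least 2-fold lower in the lesion of Bart and at least 2-fold higher in those of Jerome and Sadie, were shared by 22 of the 13327 identifiers (0.165%), KRT4 itself included. The pattern was taken from KRT4, so nothing is read from this count either. The 4 with a name were KRT4, KRT7, KRT19 and TRIB3, a pseudokinase of stress signalling. The count is on values floored at 1 FPKM and depends on the floor. Without it KRT79 shows these directions too, with healthy at 83.0-fold the lesion in Bart. Its lesion stood at 3.11-fold healthy in Jerome and 98.7-fold in Sadie.

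The other named genes that anchor basal cells were lower in the lesions of Bart and Sadie, and none passed the test. LAMA3 and LAMB3 encode chains of the laminin that hemidesmosomes bind, and COL7A1 encodes the collagen of anchoring fibrils. LAMA3 averaged 10.6 ± 1.72 FPKM in healthy mucosa and 4.07 ± 2.56 FPKM in lesions (SD, n = 3 each), with a log2 difference of -1.54 and an adjusted p = 0.075 from limma, a linear model fitted to each identifier. COL7A1 averaged 32.0 ± 15.1 FPKM and 13.9 ± 7.99 FPKM in the same order, with an adjusted p = 0.18. LAMB3 went from 44.6 to 0.98 FPKM between healthy mucosa and lesion in Bart, from 23.7 to 35.6 FPKM in Jerome and from 21.7 to 12.8 FPKM in Sadie (adjusted p = 0.36). Every lesion lay below the healthy range of LAMA3 and of COL7A1, whereas for LAMB3 the lesion of Jerome lay above the healthy values of Jerome and Sadie.

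Within a library, COL17A1 stood at 23.5 to 40.2 times LAMA3 in healthy mucosa and at 16.3 to 20.1 times in lesions. Against COL7A1 it stood at 9.74 to 10.2 times in healthy mucosa and at 3.43 to 7.76 times in lesions. Both ratios were lower in every lesion than in any healthy library. COL17A1 was chosen with its lower lesion values in view, so nothing is read from this separation. Over the 6 libraries the log2 values of COL17A1 correlated with those of LAMA3 at r = 0.97 and with those of LAMB4 at r = 0.90, whereas KRT4 and COL17A1 stood at r = -0.06. These r are on values floored at 1 FPKM and describe 6 libraries that differ by tissue, which all of these genes share.

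Basement membrane genes divided in direction. LAMB4, LAMA3, LAMB3 and COL4A5, a collagen IV chain of epithelial basement membranes among others, had negative mean differences. LAMB1, LAMA4, LAMC3, COL4A1, COL4A2, HSPG2 (perlecan), NID1 and NID2 (nidogens), most of them widespread in vessel walls and other basement membranes, had positive ones, in every cat. LAMB1 is the next protein-coding gene to LAMB4 in the RefSeq gene table of the cat assembly Fca126. From healthy mucosa to lesion it went from 32.4 to 132 FPKM in Bart, from 8.62 to 25.7 FPKM in Jerome and from 7.11 to 24.5 FPKM in Sadie. The ratio of LAMB1 to LAMB4 was 0.93 to 4.88 in healthy mucosa and 14.8 to 916 in lesions, without overlap. Ratios in the lesions of Bart and Sadie rest on LAMB4 values under 1 FPKM. LAMB4 too was chosen with its lower lesion values in view, so nothing is read from the gap between the tissues.

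Of the 33 anchorage and basement membrane genes listed beside COL17A1 and LAMB4, 12 had a name. limma called 0 of the 12 in either direction at an adjusted p under 0.05, where it called 5.31% of all tested identifiers higher and 6.61% lower. At an unadjusted p under 0.05 it called 5 (31.6% of all tested), with COL4A1, COL4A2, HSPG2 and NID1 higher and LAMA3 lower. With the cat as a block, 6 of the 12 rose (COL4A1, COL4A2, HSPG2, LAMA4, LAMB1 and NID2) and none fell, where 12.2% of all identifiers were called higher and 11.1% lower. COL4A1 had a log2 difference of 2.54 (standard error 0.92) and HSPG2 one of 1.74 (standard error 0.57), and their adjusted p with the block was 0.022 and 0.023 (limma). Without Bart limma called the same 6 genes higher, and without the lesion of Jerome it called LAMA3 lower (adjusted p = 0.040). The median log2 difference of the 12 was 1.36, against -0.07 over all tested identifiers, and genes were named only where the study listed them as at least 2-fold different.

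**Figure D2:**
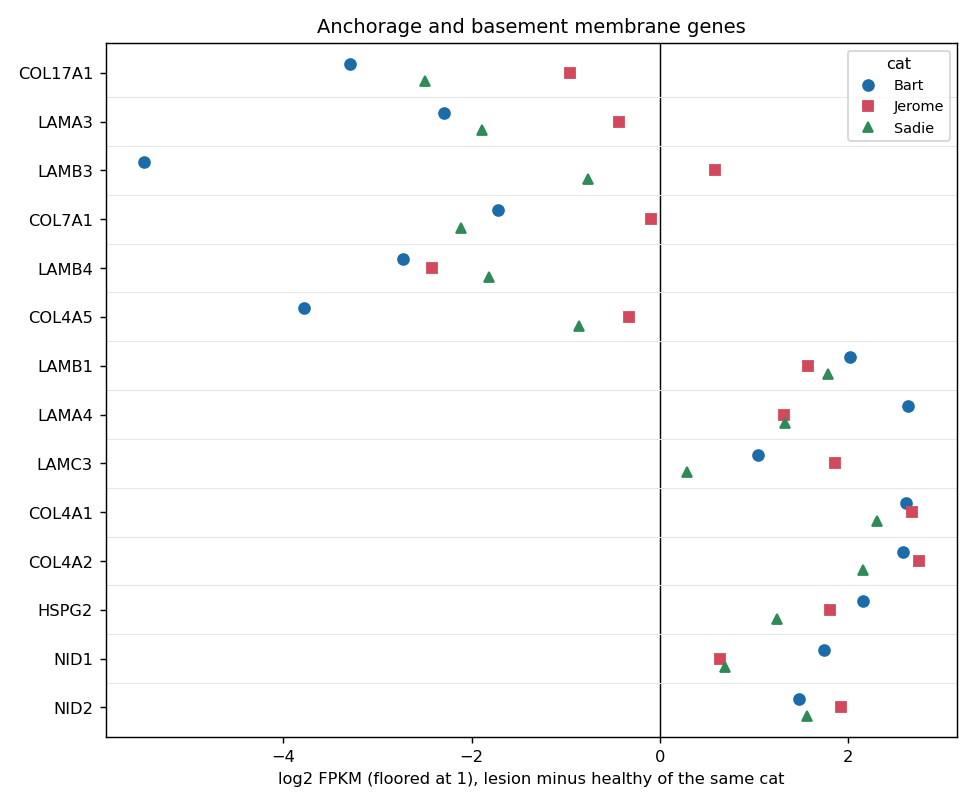
Log2 FPKM (floored at 1) of the lesion minus that of the healthy mucosa of the same cat (horizontal axis) for COL17A1, LAMB4 and 12 other anchorage and basement membrane genes (vertical axis), with 1 point per cat. The first 6 genes lie below 0 in every cat apart from LAMB3 in Jerome, and the other 8 above 0 in every cat. Among the first 6, Jerome lies nearest to 0, or above it, in all but LAMB4.

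The cats differed in how far these genes were lower. The lesion of Jerome showed the least fall on the floored log2 scale for COL17A1, LAMA3, LAMB3, COL7A1 and COL4A5. In COL7A1 the lesion of Jerome measured 21.4 FPKM against 22.8 FPKM in its healthy mucosa. LAMB4 was least lower in Sadie on that scale, because the floor raised its lesion value from 0.0773 to 1 FPKM, and least lower in Jerome by unfloored shares. Among all 1640 identifiers at least 2-fold lower in lesions, the least fall lay in Jerome for 54.6%, in Bart for 32.8% and in Sadie for 12.6%.

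Genes of the maturing epithelium other than KRT4 were lower in all 3 lesions. Of 48 such genes listed beside KRT4, 6 had a name, and limma called 3 of them lower (adjusted p under 0.05, where 6.61% of all tested identifiers were called lower). TGM5 and ALOXE3, 2 of the 3, were under 1 FPKM in every lesion, so they passed the filter through the healthy libraries alone and had no spread between lesions after the floor. Their p-values are therefore not given, and the count is no support for a change of the list. TGM5, a transglutaminase that cross-links the cornified envelope, averaged 5.63 ± 2.45 FPKM in healthy mucosa and 0.354 ± 0.245 FPKM in lesions (SD, n = 3 each). ALOXE3, a lipoxygenase of barrier lipid synthesis, averaged 5.31 ± 2.02 FPKM and 0.216 ± 0.047 FPKM in the same order. As for LAMB4, the floor hides part of these differences: the log2 difference was -2.38 for TGM5 and -2.34 for ALOXE3 with the floor, and -3.74 and -4.04 with 0.1 FPKM added instead. The third, KRT23, a type I keratin, fell by 2.21 ± 0.53 in log2 units (estimate ± standard error, adjusted p = 0.048) and was lower in each lesion than in any healthy library. NIPAL4, a transporter-like protein mutated in ichthyosis, had a difference of -2.37 (adjusted p = 0.098), KRT10, the keratin of cornifying cells, one of -1.02 (adjusted p = 0.19) and ELF3, an epithelial transcription factor, one of -1.79 (adjusted p = 0.28).

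Leaving out 1 library or cat, limma called 0 to 2 of the 6 lower: 0 when the lesion, the healthy library or both of Sadie were dropped, 0 without Jerome, 2 without the lesion of Bart and 1 in each of the other 4 fits. With either Jerome or Sadie left out, it called 0 of all 13327 identifiers (in each direction 1022 to 1266 at an unadjusted p under 0.05), so these losses are not particular to the list. Every gene of the 6 called in these fits was ALOXE3 or TGM5, which were under 1 FPKM in every lesion. These counts too are thus no support for a change of the list. KRT23 passed in none of the 9 fits, and with the cat as a block its adjusted p was 0.070 (limma). In Bart, KRT4 was lower in the lesion as these 6 were, whereas in Jerome and Sadie it was the reverse. Over the 6 libraries KRT4 correlated with the 6 at r between -0.59 (ALOXE3) and 0.33 (KRT10).

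Among the 5 named keratins, KRT4 was most like its neighbour KRT79 and then KRT19 and KRT7, by correlation. KRT79, a type II keratin that lies next to KRT4 in the RefSeq table, was at 0.021 FPKM in the lesion of Bart, 6.11 FPKM in that of Jerome and 44.0 FPKM in that of Sadie, with 0.45 to 1.96 FPKM in healthy mucosa. KRT19, a keratin of ducts and simple epithelia that also occurs in basal cells, was at 0.063, 72.8 and 122 FPKM in the lesions in the same order of cats, with 2.33 to 7.63 FPKM in healthy mucosa. KRT7, a keratin of glands and ducts, was at 0.118, 6.83 and 54.1 FPKM, with 0.89 to 7.64 FPKM in healthy mucosa. In Jerome and Sadie all 3 were higher in the lesion than in the healthy mucosa of the same cat, as KRT4 was. They were highest in the lesion of Sadie, whereas KRT4 was highest in that of Jerome. KRT7 in the lesion of Jerome lay below its 7.64 FPKM in the healthy mucosa of Sadie, where KRT4 was listed at 0. All 3 lacked the high value of KRT4 in the healthy mucosa of Bart. Their correlation with KRT4 was r = 0.56 (KRT79), 0.47 (KRT19) and 0.42 (KRT7) over 6 libraries.

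Of 39 keratins listed beside KRT4, 5 had a name, 1 fell (KRT23) and none rose, where 6.61% of all tested identifiers were called lower and 5.31% higher. Adjusted p-values from limma were 0.33 for KRT79, 0.45 for KRT19 and 0.57 for KRT7. Without Bart, or without the lesion of Bart alone, KRT19 passed (adjusted p = 0.032 and 0.035), and KRT23 did not. The sources used here do not give how reads shared between related keratin genes were assigned.

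**Figure D3:**
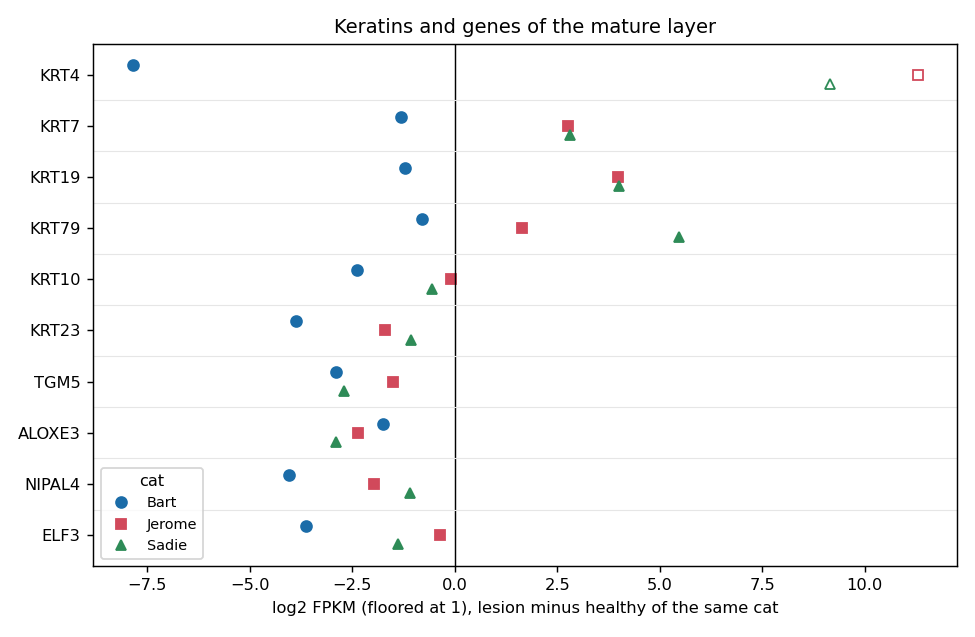
Log2 FPKM (floored at 1) of the lesion minus that of the healthy mucosa of the same cat (horizontal axis) for KRT4, 5 other keratins and 4 genes of the maturing epithelium (vertical axis), with 1 point per cat. Open points mark cats whose healthy library lists KRT4 at 0, so their distance from 0 depends on the floor. Where a value was under 1 FPKM the floor also shrinks the difference, as for KRT7, KRT19 and KRT79 in Bart. KRT4, KRT7, KRT19 and KRT79 lie below 0 in Bart and above 0 in Jerome and Sadie, and the other 6 genes lie below 0 in every cat.

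PKP4, a plakophilin-related protein of cell junctions and the only 1 of 15 desmosome genes with a name, averaged 20.5 ± 8.76 FPKM in healthy mucosa and 8.86 ± 2.76 FPKM in lesions (SD, n = 3 each). Its log2 difference was -1.15, with an adjusted p = 0.14 from limma (0.030 with the cat as a block).

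Markers of other cell types were higher in the lesions, and in whole tissue fewer cells of a type and less RNA per cell cannot be told apart. The summed FPKM of 18 named of 19 leukocyte markers was 1679 to 2803 in lesions and 255 to 709 in healthy mucosa, and 7 of the 18 rose, where 5.31% of all tested identifiers were called higher (17 with the cat as a block, where 12.2% were). That of 11 named of 13 endothelial markers was 898 to 2164 and 221 to 480, with 4 risen (11 with the cat as a block) against the same shares of all identifiers, and its highest value lay in the lesion of Bart, as did those of COL4A1, COL4A2, LAMB1 and LAMA4. The endothelial gene PLVAP, of vessel fenestrae, had a log2 difference of 1.85 (adjusted p = 0.023, limma). MS4A1, the B cell antigen CD20, is among the 7 leukocyte genes called and had a log2 difference of 3.06. Its healthy values were 0.133 FPKM in Bart, 1.20 FPKM in Jerome and 0.384 FPKM in Sadie. The floor thus removed most of their spread, and its p-value is not given. The 2 named of 9 fibroblast genes summed to 197 to 606 FPKM in lesions and 68.8 to 147 FPKM in healthy mucosa. Their highest sum also lay in the lesion of Bart, as did the highest values of HSPG2, NID1, NID2 and LAMC3. What this shared peak reflects was not tested. No named marker of these 3 lists was at 0 in any library. Genes had a name only where the study listed them as at least 2-fold different between these tissues. The shares of all identifiers are thus no fair background for the counts of risen markers, and these counts are no support for a change of the lists. Their part in the lower COL17A1 and LAMB4 was not tested.

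Muscle and duct genes also varied between the libraries. The summed FPKM of 19 named of 25 skeletal muscle genes was 2611 to 6100 in the lesions of Jerome and Sadie and the healthy mucosa of Sadie, and 13.5 to 38.8 in the other 3 libraries. KRT4 was high in the first 2 of these, but listed at 0 in the healthy mucosa of Sadie and high in that of Bart, where muscle genes were low. The 3 named of 15 duct and gland genes, KRT7, KRT19 and LTF (lactoferrin, also a neutrophil protein), summed to 11.03 FPKM in the lesion of Bart, 81.8 FPKM in that of Jerome and 203 FPKM in that of Sadie, and to 5.16 to 15.3 FPKM in healthy mucosa. LTF was at 10.9, 2.12 and 26.8 FPKM in the lesions of Bart, Jerome and Sadie and under 1 FPKM in every healthy library, so it passed the filter through the lesions alone and no test of it is given. The part of duct or gland tissue in KRT4 was not tested.

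The genes most like each of the 3 were found by Pearson correlation of log2 values (FPKM floored at 1) over the 6 libraries, as a description. For KRT4 the closest was the unnamed identifier ENSFCAG00000001928 (r = 0.99). The closest with a name were KCNN4, a calcium-activated potassium channel (r = 0.95), COL23A1, a transmembrane collagen (0.89), SPP1, osteopontin (0.88), B3GNT7, a glycosyltransferase (0.86), and GNE, an enzyme of sialic acid synthesis (0.84). KCNN4 shared the 3 high libraries at 16.3 to 20.7 FPKM, but was at 9.26 FPKM in lesional Bart and 2.53 to 3.51 FPKM where KRT4 was listed at 0. Only 12 identifiers exceeded r = 0.95 with KRT4, against 137 with COL17A1 and 124 with LAMB4.

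For COL17A1 the closest identifier was ENSFCAG00000011757, without a name (r = 0.999). It was at 291, 114 and 138 FPKM in healthy mucosa and 22.6, 52.5 and 18.4 FPKM in lesions (Bart, Jerome and Sadie), the same order of the 6 libraries as COL17A1. Named genes close to COL17A1 were PLBD1, a phospholipase-like protein (r = 0.99), MARK4, a kinase of microtubule proteins (0.99), TOM1L1, an adaptor of endosomal sorting (0.99), AJUBA, a LIM protein of cell junctions (0.99), and TBC1D2, a regulator of Rab GTPases (0.99).

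For LAMB4 the closest was PPIP5K1, an inositol pyrophosphate kinase (r = 0.998), at 8.08 to 16.4 FPKM in healthy mucosa and 3.58 to 4.96 FPKM in lesions. The floor gives LAMB4 the same value in the lesions of Bart (0.144 FPKM) and Sadie (0.0773 FPKM). Unfloored, its lesions spanned 22.4-fold, so every r with LAMB4 depends on the floor. Identifiers without a name held most of the next places, and the next genes with a name were PTPN3, a tyrosine phosphatase (0.99), SLC6A4, the serotonin transporter (0.98), CYB5R2, a cytochrome b5 reductase (0.98), and DSCR3, a protein of endosomal recycling (0.98). LAMB4 was highest in the healthy mucosa of Jerome, whereas COL17A1 was highest in that of Bart.

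**Figure D4:**
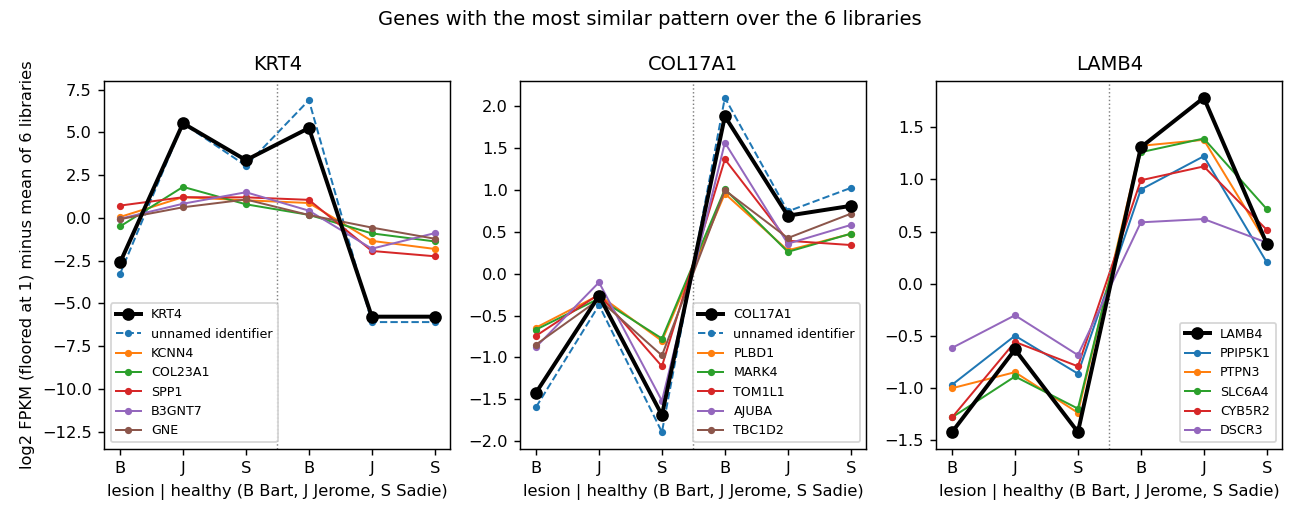
Log2 FPKM (floored at 1) minus the mean over the 6 libraries (vertical axis, with its own range in each panel) in the lesions and healthy mucosa of Bart, Jerome and Sadie (horizontal axis). Black lines show KRT4, COL17A1 and LAMB4, thin lines the 5 named genes with the highest r, and dashed lines, in the panels of KRT4 and COL17A1, the closest identifier without a name. The unnamed identifier beside KRT4 shares both its zeros, whereas the named genes follow it with a far smaller range.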

How the data were processed

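RNA of 6 biopsies was measured, 1 lesion and 1 healthy biopsy from each of 3 cats, grouped and paired by the labels. The authors deposited FPKM per library. The submitters' notes list bcl2fastq, HISAT, Cufflinks and Cuffnorm. Their versions and the genome build were not given in the sources used. The labels give single reads and the paper paired reads. With the depth unknown, no intervals from counts were computed. Between 4688 and 4927 identifiers were listed at 0 per library.

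Symbols came from a supplementary table of the study, of which 1981 genes were read. The study reports more genes than these as at least 2-fold different. Floored at 1, the 6 values of every gene matched 1 identifier to 5 significant digits. Of these, 1929 with at least 3 values above the floor and an intact symbol were named. FPKM were floored at 1 and log2 taken. limma 3.58.1 (R 4.3.3) was run on the identifiers that reached 1 FPKM in 3 or more libraries. Tissue was its 1 term, the prior variance followed the mean, p-values were two-sided and adjusted by Benjamini-Hochberg, and the step was tested on simulated data. Replicates were separate cats. Figures were drawn in Python 3.11.15 with matplotlib 3.10.9. Alternatives were 0.1 FPKM added in place of the floor, no filter, equal library medians, quantile normalization, the cat as a block, and each library or cat left out. The labels state the shared animal, and same-cat libraries deviated together across genes (r = 0.49 in Bart, 0.20 in Jerome and 0.41 in Sadie). Libraries of different cats gave r = -0.44 to 0.27, the highest between lesional Jerome and healthy Sadie, above the pair of Jerome.

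The genes, the 11 lists and the rules were chosen with earlier results of these data and the supplementary table known. The genes to be named were those with a name in the anchorage, basement membrane, basal, mature layer, keratin and desmosome lists, up to 3 with the smallest p in each other list, and the 5 named genes most like each of the 3 genes. No basal keratinocyte gene of 5 had a name. No sequence is printed, since none was in the reference used here.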

Additional observations from a re-analysis of the deposited data

Results flagged for a closer look

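KRT4, KRT7 and KRT19 differed in opposite directions between the cats, each by at least 2-fold in every cat. Without the floor KRT79 did so as well, but with it the log2 difference of KRT79 in Bart was -0.79. With 1 lesion and 1 healthy library per cat, this difference between cats was not tested. On the log2 scale with values floored at 1 FPKM, lesion minus healthy, KRT4 was at -7.86 in Bart, 11.3 in Jerome and 9.15 in Sadie, and the last 2 values are set by the floor because the healthy library lists the gene at 0. KRT19 was at -1.22 in Bart, 3.98 in Jerome and 3.999 in Sadie, and KRT7 at -1.32, 2.77 and 2.82 in the same order. The floor also shrinks the falls in Bart, whose lesion held 0.063 FPKM of KRT19 and 0.118 FPKM of KRT7. Without the floor, healthy Bart stood at 36.9-fold its lesion for KRT19 and 21.1-fold for KRT7. In healthy Jerome the floor raised KRT7 from 0.889 to 1 FPKM.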

How the results depend on the processing

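The mean differences of KRT4, COL17A1 and LAMB4 kept their direction under every alternative run. That of LAMB4 was -3.83 with 0.1 FPKM added in place of the floor. Leaving out 1 library or cat gave 0.65 to 10.2 for KRT4, -2.89 to -1.72 for COL17A1 and -2.71 to -2.01 for LAMB4. Over all identifiers limma called 707 higher and 881 lower, against 205 and 321 without a filter on low values, and 0 to 1036 and 0 to 1100 with 1 library or cat left out. With the cat as a replicate block it called 1622 higher and 1476 lower, and 6 anchorage and basement membrane genes higher, where the fit without the block called 0. With 1 library or cat left out those genes gave 0 to 6 higher and 0 to 1 lower, mature layer genes 0 to 2 lower and keratins 0 to 1 higher and 0 lower. Without a filter 1 mature layer gene, ALOXE3, was lower, in place of 3. With 1 library or cat left out the mature layer calls were of ALOXE3 and TGM5 alone. Both were under 1 FPKM in every lesion, so these counts are no support for a change of that list. The 1 lower keratin, KRT23, became 0 with 0.1 FPKM added (adjusted p = 0.054), without a filter (0.11), after quantile normalization (0.060) and with the block (0.070). KRT7 was at 1.43 with all libraries and at -0.032 (without the lesion of Sadie) to 2.85 with 1 library or cat left out, past the threshold in none of these fits. Among the other anchorage, mature layer, keratin and desmosome genes the block changed the call of PKP4 alone. Of 308 single gene values under the alternatives, 265 kept their direction and side of the threshold. The low level of LAMB4 in lesions, and the exact zeros of KRT4, limit what their folds can show. A fit that leaves out 1 library of a tissue assumes that the 2 left vary as the other 3 do, and the cause of the 0 calls without Jerome (1170 higher and 1266 lower at an unadjusted p under 0.05 in limma) or without Sadie (1117 and 1022) was not tested.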
